A study of Mus musculus with 10 samples.

Results

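The 10 genes described here encode the lectin chaperones and disulfide isomerases of the endoplasmic reticulum (ER), and were taken by gene symbol from the 15507 genes listed in the table. All 10 were present, and all 10 passed the filter on low counts. Of these, 3 are known for expression restricted to the testis (Clgn, Calr3 and Pdilt) and 7 are widely expressed (Canx, Calr, P4hb, Pdia3, Pdia4, Pdia6 and Ero1l). RNA-Seq was performed on germ cells of 5 wild type (WT) mice and 5 GRTH knock-in (KI) mice, all 45 days old, with 1 library per mouse. The KI mice were homozygous for a targeted allele that carries the human GRTH (DDX25) gene with the R242H mutation, a gene whose product is a testicular RNA helicase, and WT mice carried the normal mouse gene. Germ cells of all stages were pooled within each mouse after enzymatic dispersion of the testis, no sorting step being described, and the labels name no treatment in either genotype. The study's design compared the transcriptomes of the 2 genotypes, and the comparison here asks whether the genes of glycoprotein folding differed between them.

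Newly made membrane and secreted proteins enter the ER, where glucose-trimmed sugar chains are bound by the lectin chaperones calnexin (Canx) and calreticulin (Calr). The disulfide isomerases form and rearrange the disulfide bonds of the client protein, and Pdia3 is the isomerase that works with both lectins, while the oxidase Ero1l hands oxidizing power to P4hb. Male germ cells make relatives of these proteins: calmegin (Clgn) is the testis relative of calnexin, Calr3 (calsperin) that of calreticulin, and Pdilt that of the disulfide isomerases. Mouse mutants of each of the 3 are known to lack mature Adam3, a sperm surface protein needed for passage into the oviduct and for binding to the zona pellucida.

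The widely expressed ER chaperone genes are known targets of the unfolded protein response, which acts through a paired promoter motif, the ER stress response element. This motif (CCAAT and CCACG with a gap of 9 bases, searched on both strands) was looked for from 250 bases before to 50 bases after each start site in the RefSeq promoters of build GRCm38.p6 (mm10). A promoter entry was matched for 9 of the 10 genes, all but the testis-restricted Clgn. The motif was found in 39 of 32851 promoters (0.119%), and 3 of the 7 widely expressed genes held it, whereas neither Calr3 nor Pdilt did. The promoters below are shown to set the 3 that hold the motif (in capitals) beside those of Calr3 and Pdilt. In these 2, capitals mark the CCAAT box alone.

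Canx, chr11:50325624-50325923, minus strand: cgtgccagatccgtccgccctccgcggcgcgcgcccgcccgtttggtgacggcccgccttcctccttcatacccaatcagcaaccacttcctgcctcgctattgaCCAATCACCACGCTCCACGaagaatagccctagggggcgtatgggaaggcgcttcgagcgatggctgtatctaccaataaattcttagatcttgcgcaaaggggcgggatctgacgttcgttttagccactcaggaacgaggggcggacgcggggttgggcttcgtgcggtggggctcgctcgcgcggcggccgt

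Calr, chr8:84846882-84847181, minus strand: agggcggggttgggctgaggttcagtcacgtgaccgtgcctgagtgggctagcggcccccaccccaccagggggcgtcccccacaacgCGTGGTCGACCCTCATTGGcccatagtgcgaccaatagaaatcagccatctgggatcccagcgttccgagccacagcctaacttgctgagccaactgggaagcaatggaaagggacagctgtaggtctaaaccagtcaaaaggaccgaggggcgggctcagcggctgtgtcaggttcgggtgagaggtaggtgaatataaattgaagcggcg

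Pdia6, chr12:17266339-17266638, plus strand: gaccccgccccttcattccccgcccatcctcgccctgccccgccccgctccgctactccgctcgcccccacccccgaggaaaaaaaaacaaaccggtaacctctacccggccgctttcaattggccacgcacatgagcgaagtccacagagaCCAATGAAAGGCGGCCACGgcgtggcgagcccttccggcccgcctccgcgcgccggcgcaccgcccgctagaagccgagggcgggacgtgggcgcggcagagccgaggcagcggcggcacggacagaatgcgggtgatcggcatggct

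Calr3, chr8:72443729-72444028, minus strand: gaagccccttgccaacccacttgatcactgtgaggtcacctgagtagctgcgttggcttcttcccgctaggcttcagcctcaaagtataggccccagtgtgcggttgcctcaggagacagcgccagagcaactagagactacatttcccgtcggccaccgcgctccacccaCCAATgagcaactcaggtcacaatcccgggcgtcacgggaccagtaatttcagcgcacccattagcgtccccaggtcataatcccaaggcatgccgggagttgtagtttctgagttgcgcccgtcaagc

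Pdilt, chr7:119523433-119523732, minus strand: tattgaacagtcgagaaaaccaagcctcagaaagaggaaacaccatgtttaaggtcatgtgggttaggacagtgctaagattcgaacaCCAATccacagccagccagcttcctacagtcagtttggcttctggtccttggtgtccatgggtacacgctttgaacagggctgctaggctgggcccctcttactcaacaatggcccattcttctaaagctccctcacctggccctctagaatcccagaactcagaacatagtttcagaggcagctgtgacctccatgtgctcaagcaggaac

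With the start site as position 0, the motif lay from −145 to −127 in Canx, from −162 to −144 (as its reverse complement) in Calr and from −98 to −80 in Pdia6. Each of these matches contains a CCAAT box, which on its own occurred in 37.4% of all promoters and in 8 of the 9 genes matched, Ero1l being the exception. The second ER stress motif (ATTGG and CCACG with a gap of 1 base, 0.0365% of promoters), the cyclic AMP response element (TGACGTCA, 1.79%) and the core of the unfolded protein response element (TGACGTGG, 0.676%) were not found in any of these windows. The Pdilt promoter contained 50.3% G and C with 3 CpG dinucleotides, and the Calr3 promoter shown contained 58% with 16. A second RefSeq start of Calr3 had 48.3% and 3. The 7 widely expressed genes ranged from 60.3% (Calr) to 80.3% (Ero1l), and from 17 CpG dinucleotides in Calr to 49 in Ero1l. The median over all promoters was 52.7% (quartiles 45.7% and 61.7%) with 7 CpG dinucleotides. A match of letters describes the sequence and is no evidence of binding.

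**Figure D1:**
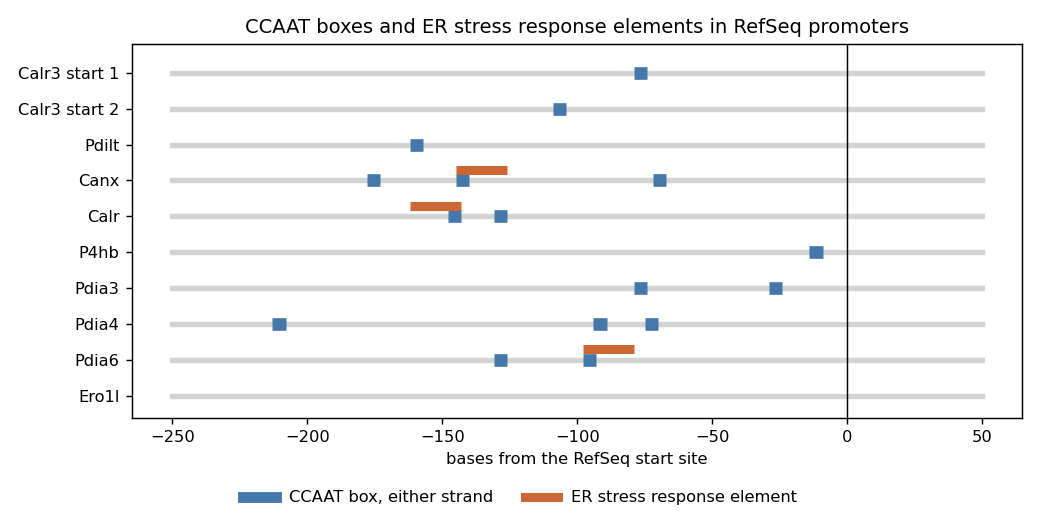
Positions of CCAAT boxes (blue) and ER stress response elements (orange) in the RefSeq promoters of 9 genes, on an axis of bases from the start site. Canx, Calr and Pdia6 hold an ER stress response element, and Ero1l holds neither motif.

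The values used are counts that the authors normalized by size factors, called normalized counts below. The recovered library totals were 13323024 to 16422347 reads in WT and 12722086 to 15500582 in KI. Ddx25, the mouse gene, averaged 8231 ± 2209 (SD, n = 5) normalized counts in WT (5198 to 11101). KI libraries 1 to 5 had 146, 194, 161, 2.88 and 1.84, all below every WT library and lowest in libraries 4 and 5. By principal components (500 genes of highest variance), the first axis (74.1% of variance) parted the genotypes, and the next (9.75%) parted libraries 1 to 3 of both genotypes from libraries 4 and 5. No label names this second division, so results are also given within each set. All 11 elongating spermatid markers were down-regulated in KI (median log2 fold change −2.50, summed level 267800 to 473300 in WT and 39330 to 77030 in KI). The paper reports that KI mice lack elongating spermatids, because their round spermatids fail to elongate. The KI germ cells thus lacked a late cell type of WT, and its part in the values below was not tested. In bulk RNA, fewer cells of a type and less RNA per cell cannot be told apart.

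When set on a common scale, as normalized count per kilobase (kb) of exon, Clgn was the most abundant of the 10 in WT germ cells at 3916 ± 348 (SD, n = 5). Calr followed at 3830 ± 450, and the library ranges of these genes overlapped. With the longest transcript as the length, Calr led at 5050 and Pdia6 came to 1590, so these ranks depend on the length used. Pdia3 was at 2711 ± 98.3 and Pdilt at 1422 ± 258, each apart from its neighbours in the order. Canx (948 ± 103) and Pdia6 (921 ± 119) overlapped. P4hb, the founding disulfide isomerase, was at 586 ± 71.7 and overlapped with Calr3 at 570 ± 112, which in turn overlapped with Pdia4 at 357 ± 65.0. Ero1l was lowest at 55.0 ± 7.21, apart from all others. Its relative Ero1lb, outside the 10 and chosen after its values were seen, was at 540 ± 75.4 per kb. The testis-restricted genes were thus spread over the range of the widely expressed ones rather than grouped at one end.

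The order in KI was close to that in WT. Calr (3472) and Clgn (3400) led with overlapping ranges, Pdia3 (2394) stood apart, and Pdilt (1176) overlapped with Canx (871), and Canx with Pdia6 (791). P4hb was at 604 per kb, followed by Pdia4 (394) and Calr3 (392), which overlapped, and Ero1l (46.0). Within WT libraries the level per kb of Clgn was on average 4.14 times that of Canx, Pdilt was 2.49 times P4hb, and Calr3 was 0.153 times Calr. The same means in KI were 3.92, 1.93 and 0.113. The testis relative was therefore the more abundant transcript of the calnexin and disulfide isomerase pairs, and the less abundant one of the calreticulin pair, in both genotypes.

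**Figure D2:**
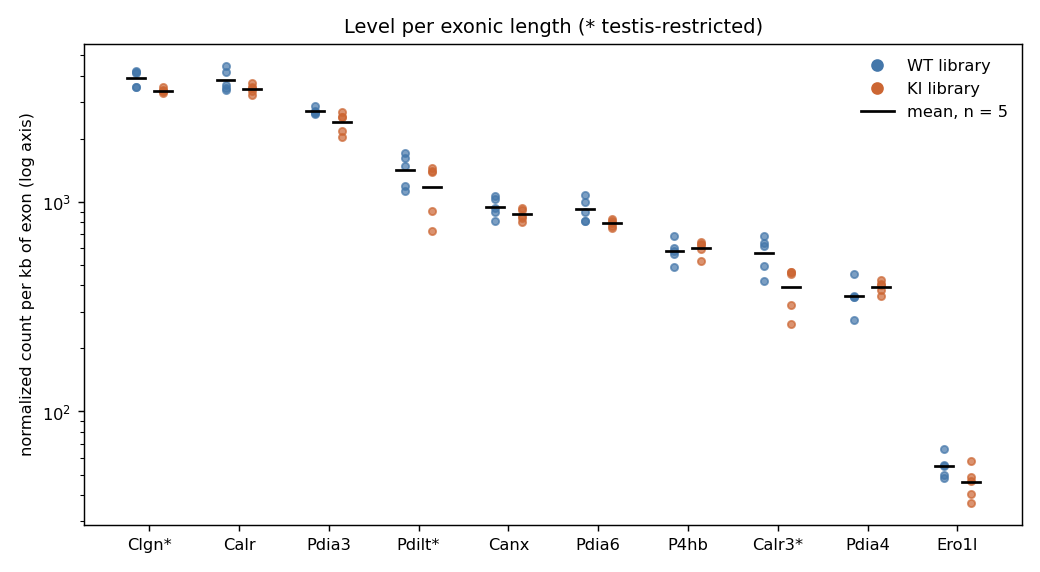
Normalized count per kb of exon on a log axis for each library (points, WT blue and KI orange) with the mean of 5 libraries (bars), genes ordered by their WT mean and testis-restricted genes marked by an asterisk. Clgn and Calr lie at the top at 3916 and 3830 in WT, and Ero1l at the bottom at 55.0.

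Between genotypes, none of the 10 genes was differentially expressed at the study's thresholds (adjusted p under 0.05 and a fold change of at least 1.5), whereas 14.4% of all 15389 genes tested were. Neither direction held a gene of the 10, against 8.22% of all genes lower (1265) and 6.13% higher (944) in KI, a split that became 789 lower and 2144 higher with libraries scaled to their totals, 1025 and 1296 with upper-quartile scaling, and 794 and 1275 with scaling on spermatocyte markers. By limma with Benjamini-Hochberg adjustment, 1 of the 10 (Calr3) had an adjusted p under 0.05, where 22.9% of all genes did. It was lower in KI, as were 13.3% of all genes, and none was higher (9.65% of all genes). With library totals the 1 gene with an adjusted p under 0.05 was instead Pdia4, which was higher in KI. By unadjusted p, 3 of the 10 were under 0.05 (34.6% of all genes), and by edgeR and DESeq2 none of the 10 met both thresholds. In no gene of the 10 did all KI libraries fall outside the WT range, as they did in 17.7% of all genes. The log2 fold change was below 0 in 8 of the 10, compared with 46.4% of all genes, but in 3 of the 10 when libraries were scaled to their totals and in 5 when they were scaled on spermatocyte markers. These scalings move the median of all genes from 0.03 to 0.25 and 0.21, and upper-quartile scaling moves it to 0.12. The median was −0.31 over the 3 testis-restricted genes and −0.14 over the 7 widely expressed genes, but −0.08 and 0.09 with library totals, and −0.12 and 0.06 with scaling on spermatocyte markers. Under the deposited scaling, the 95% interval of the fold change lay within 1.5-fold in either direction for 8 of the 10 genes. The exceptions were Calr3 and Pdilt. The count was 8 with library totals and with upper-quartile scaling, though not necessarily of the same genes. It was 7 with scaling on spermatocyte markers and 9 with the replicate block.

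**Figure D3:**
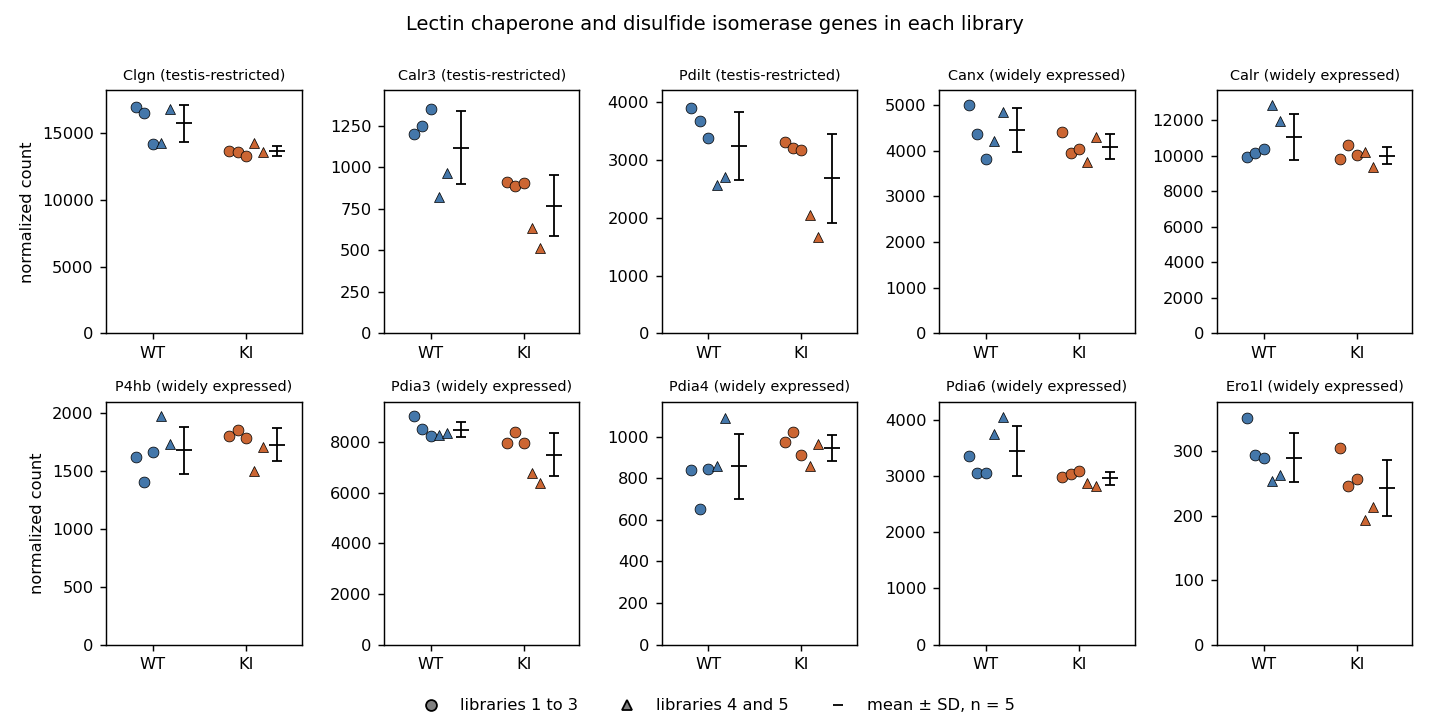
Normalized count (linear axes from 0) of each gene in the 5 WT (blue) and 5 KI (orange) libraries, with circles for libraries 1 to 3, triangles for libraries 4 and 5, and the mean ± SD beside them. In Calr3, Pdilt and the widely expressed Ero1l the triangles lie below the circles in both genotypes, and KI and WT points overlap in every panel.

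Clgn (chromosome 8, 83389842 to 83428553, plus strand), the membrane-bound testis lectin chaperone, had normalized counts of 16949, 16525, 14187, 14291 and 16857 in WT libraries 1 to 5. The KI libraries had 13699, 13597, 13292, 14270 and 13566. The KI values lay in a narrow band, and 4 of them were below every WT library. The log2 fold change was −0.20 (SE 0.09, 95% interval −0.40 to −0.00), and the adjusted p was 0.143. DESeq2 gave an adjusted p of 0.0493.

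Canx (chromosome 11, 50293957 to 50325674, minus strand), the widely expressed counterpart of Clgn, had 5004, 4369, 3813, 4207 and 4847 in WT and 4408, 3953, 4035, 3748 and 4301 in KI. The ranges overlapped broadly. Its log2 fold change was −0.12 (SE 0.09, interval −0.32 to 0.08, adjusted p = 0.421, limma).

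Calr3 (chromosome 8, 72424183 to 72443779, minus strand), the testis calreticulin, had 1203, 1252, 1353, 820 and 967 normalized counts in WT libraries 1 to 5. The KI libraries had 910, 886, 904, 634 and 513. Libraries 4 and 5 were the lowest of their genotype in both groups, so the genotypes overlapped, but KI was below WT in each of the 5 replicate numbers. The titles name no pairing of mice with the same number. For Calr3 the log2 fold change was −0.55 (SE 0.17, interval −0.92 to −0.18, adjusted p = 0.0314, limma), or 0.682-fold, which is short of the fold threshold. Within libraries 1 to 3 the change was −0.49 (limma adjusted p = 0.000139), and within libraries 4 and 5 it was −0.64 (0.0251). With libraries scaled to their totals it was −0.32 (limma adjusted p = 0.167), and the adjusted p was also above 0.05 with upper-quartile scaling (0.0666) and scaling on spermatocyte markers (0.155). It rose to at most 0.0787 when 1 library was left out, passing 0.05 without WT1, WT2, WT3, KI4 or KI5. Without WT4, WT5, KI1, KI2 or KI3, Calr3 met both thresholds, with a log2 fold change of −0.66 to −0.60 and a limma adjusted p of 0.013 to 0.0322. The processed pseudogene Gm3835 lies within the Calr3 locus on the same strand and is not a row of the table, so reads shared with it are uncertain.

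Calr (chromosome 8, 84842088 to 84846932, minus strand), the soluble lectin chaperone that also stores calcium, had 9894, 10119, 10356, 12844 and 11947 in WT. The KI libraries had 9792, 10582, 10052, 10227 and 9341. WT libraries 4 and 5 were the highest of all 10, the reverse of their place for Calr3. The log2 fold change was −0.14 (SE 0.10, interval −0.34 to 0.07, adjusted p = 0.361, limma), with 0.00 for libraries 1 to 3 alone and −0.34 for the others.

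Pdilt (chromosome 7, 119486587 to 119523483, minus strand), the testis disulfide isomerase-like protein, which lacks the usual pair of catalytic cysteines, had 3894, 3675, 3383, 2563 and 2705 in WT. The KI libraries had 3312, 3216, 3167, 2055 and 1666. Both sets of libraries 4 and 5 were below libraries 1 to 3 of their genotype, at 0.721 times their mean in WT and 0.576 times in KI. Its change was −0.31 on the log2 scale (SE 0.19, interval −0.71 to 0.09, adjusted p = 0.268, limma). KI was below WT in each of the 5 replicate numbers, and with the replicate number as a block the limma adjusted p was 0.0178. With a term for the library sets in place of the block it was 0.0113 (limma). With library totals the log2 fold change was −0.08 (limma adjusted p = 0.762). Acsm5 overlaps Pdilt on the opposite strand.

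P4hb (chromosome 11, 120560298 to 120573254, minus strand), the archetypal disulfide isomerase, had 1619, 1401, 1661, 1970 and 1732 in WT and 1798, 1852, 1785, 1497 and 1702 in KI. The ranges overlapped, with a log2 fold change of 0.05 (SE 0.10, interval −0.17 to 0.26, adjusted p = 0.786, limma). The direction turned between the library sets, from 0.22 in libraries 1 to 3 to −0.21 in libraries 4 and 5.

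Pdia3 (chromosome 2, 121413902 to 121438687, plus strand), the isomerase partner of the lectin chaperones, had 9029, 8541, 8271, 8310 and 8393 in WT, the tightest of the 10 genes with a coefficient of variation of 3.63%. The KI libraries had 7990, 8413, 7961, 6808 and 6410. KI libraries 4 and 5 were the lowest, and 4 of the 5 KI libraries lay below every WT library. Pdia3 had a log2 fold change of −0.19 (SE 0.10, interval −0.39 to 0.02, adjusted p = 0.186, limma).

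Pdia4 (chromosome 6, 47796141 to 47813513, minus strand), an isomerase with additional thioredoxin-like domains, had 840, 652, 843, 858 and 1091 in WT and 976, 1020, 913, 858 and 963 in KI. It had the highest fold change of the 10, at 0.16 on the log2 scale (SE 0.12, interval −0.09 to 0.41, adjusted p = 0.368, limma). The lowest and the highest library were both WT. Libraries 1 to 3 alone gave 0.33 and the others −0.09. With library totals the change was 0.39 (limma adjusted p = 0.0323).

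Pdia6 (chromosome 12, 17266589 to 17284786, plus strand), an isomerase known to bind the ER chaperone Hspa5, had 3351, 3049, 3049, 3746 and 4060 in WT and 2977, 3044, 3097, 2869 and 2827 in KI. WT libraries 4 and 5 were the highest of all 10. The log2 fold change was −0.21 (SE 0.10, interval −0.41 to −0.01, adjusted p = 0.129, limma), with −0.05 in libraries 1 to 3 and −0.45 in libraries 4 and 5.

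Ero1l (chromosome 14, 45283087 to 45318573, minus strand), the oxidase that recharges the isomerases, had 351, 294, 290, 254 and 264 in WT and 305, 246, 257, 193 and 214 in KI. Libraries 4 and 5 lay below libraries 1 to 3 in both genotypes, as they did for Calr3 and Pdilt. KI was below WT in each replicate number, and the ranges overlapped. For Ero1l the log2 fold change was −0.26 (SE 0.13, interval −0.55 to 0.02, adjusted p = 0.18, limma), and with the replicate block the adjusted p was 0.0348. With a term for the library sets in place of the block it was 0.0549 (limma), and within libraries 1 to 3 and 4 and 5 it was 0.206 and 0.266. With library totals the change of Ero1l was −0.03 (limma adjusted p = 0.861). With the replicate block, 3 of the 10 genes (Calr3, Pdilt and Ero1l) had an adjusted p under 0.05, where 32% of all genes did. All 3 were lower (17.4% of all genes), and none met both thresholds (15.7% of all genes).

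In 5 of the 10 genes (Clgn, Calr3, Pdilt, Pdia3 and Ero1l) KI was below WT in all 5 replicate numbers as deposited. This held for 19.7% of all genes, and the titles name no pairing by these numbers. For Clgn the libraries numbered 4 were close (14291 in WT and 14270 in KI). With library totals the log2 fold changes of Clgn and Pdia3 were 0.03 and 0.04, so neither was lower in all 5. Under the deposited scaling, the only one used within library sets, all 10 genes were below 0 in libraries 4 and 5. In libraries 1 to 3, 7 of them were. The median log2 fold change of all genes was 0.02 in each set. Within libraries 1 to 3, 4 genes had a limma adjusted p under 0.05 (31.3% of all genes): Clgn (0.0495) and Calr3 were lower, and P4hb (0.0498) and Pdia4 (0.0219) were higher. Within libraries 4 and 5 these were Calr3 and Pdilt (0.0454), both lower, or 2 of the 10 (11% of all genes). A test of whether the genotype difference itself differed between the library sets, added after seeing the data, gave no adjusted p under 0.05 among the 10 (0.247% of all genes). Its unadjusted p was under 0.05 in 5 of the 10 (16.1% of all genes), and by limma the smallest was 0.00622 for Pdia6 (adjusted p = 0.14).

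**Figure D4:**
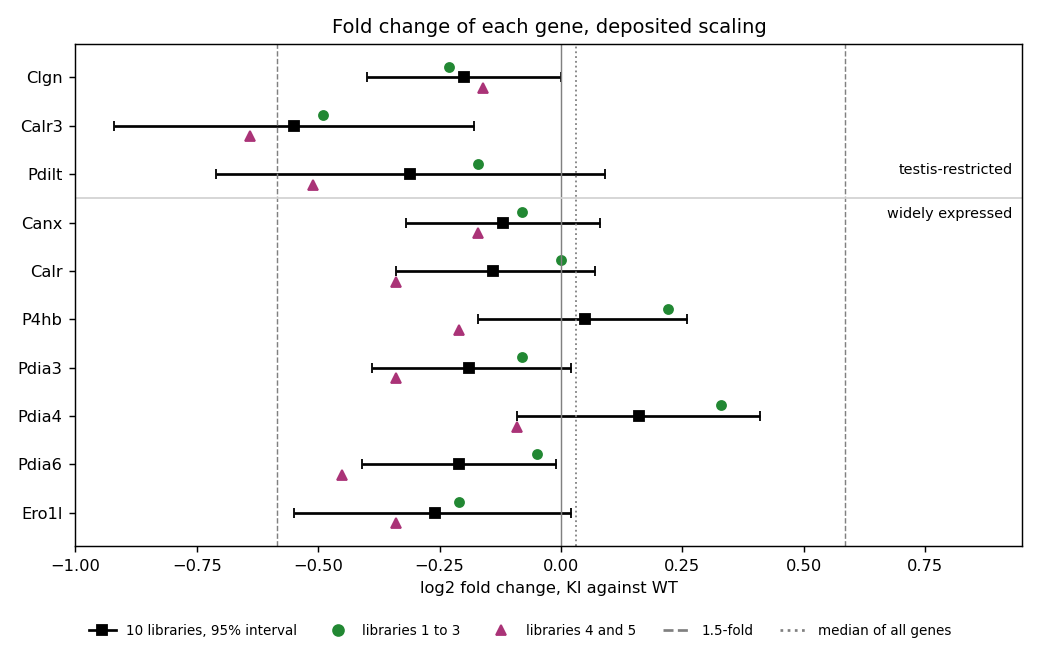
Log2 fold change of KI against WT for each gene with its 95% interval (squares, 10 libraries) and the change within libraries 1 to 3 (circles) and 4 and 5 (triangles), under the deposited scaling. Dashed lines mark 1.5-fold and the dotted line the median of all genes (0.03), and only the intervals of Calr3 and Pdilt cross the dashed line.

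The testis-restricted genes were next set against their widely expressed relatives within each library, a ratio that does not depend on scaling between libraries. For Clgn over Canx the log2 ratio of normalized counts was 1.83 ± 0.07 (SD, n = 5) in WT and 1.74 ± 0.12 in KI, a difference of −0.08 (SE 0.06, exact two-sided permutation test, p = 0.23). Calr3 over Calr was −3.32 ± 0.46 in WT and −3.73 ± 0.34 in KI (difference −0.42, SE 0.25, exact permutation p = 0.159). Pdilt over P4hb was 0.94 ± 0.42 and 0.59 ± 0.38 (difference −0.36, SE 0.26, exact permutation p = 0.214). The genotypes overlapped for each of the 3 pairs, the adjusted p over the pairs was 0.23 for each, and the smallest p that the 252 arrangements allow is 0.00794. No pair passed this test. Within replicate numbers, Calr3 over Calr was lower in KI in all 5 and the other ratios in 4 of 5, and the exact permutation p with the number as a block was 0.0625 for Calr3 over Calr, which is the smallest that 5 pairs allow.

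By Pearson correlation of log2(normalized count + 1) over the 10 libraries, given as a description among 10527 genes, the genes most like Clgn were Ift81 (r = 0.954), Adam1b (0.946) and Zfp329 (0.939). Ift81 encodes a subunit of the intraflagellar transport machinery that builds the tail. Those most like Calr3 were Zcchc13 (0.991), Cst13 (0.984) and LOC101055749 (0.984). Those most like Pdilt were Acrv1 (0.991) and Spaca7 (0.988), both of the acrosome and both in the round spermatid marker list, and Scamp1 (0.981). Calr3 and Pdilt were the most alike pair among the 10 (r = 0.919) and Clgn and P4hb the least (−0.486). Widely expressed genes were nearly as close to Pdilt and Calr3: Pdia3 (0.901 and 0.875) and Ero1l (0.862 and 0.83). The third testis-restricted gene, Clgn, had 0.372 with Pdilt and 0.514 with Calr3. These libraries share genotype and the division into libraries 1 to 3 and 4 and 5, which both enter r.

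The round spermatid markers had a median log2 fold change of −0.42, or −0.19 with library totals and −0.23 with scaling on spermatocyte markers. By adjusted p, 4 of 10 were lower in KI (13.3% of all genes), none of these 4 meeting the fold threshold. With the replicate block 6 were lower by adjusted p (17.4% of all genes), and 1 of them, Spaca7 (−0.61, limma adjusted p = 0.00165), met both thresholds. Their summed level was 25560 to 29410 in WT and 15800 to 24440 in KI, the same direction as Calr3 and Pdilt, and its part in those values was not tested. Among spermatocyte markers 1 of 10 was down-regulated (median −0.17), and among spermatogonia markers 0 of 8. Somatic markers were also present: 4 of 7 Leydig cell markers (median 0.69) and 5 of 9 macrophage markers (median 0.65) were up-regulated, with summed levels of 10880 to 19500 in WT and 15730 to 27050 in KI for Leydig cells (6 up-regulated with the block), and of 676 to 901 and 976 to 1365 for macrophages. Among 8 Sertoli cell markers none met both thresholds, and 1 of 3 peritubular myoid markers tested was up-regulated. No listed marker was at 0 in any library.

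Of 92 genes tested in 6 other lists of the folding pathway, 9 were differentially expressed (9.78%, against 14.4% of all genes). Of 15 genes of glycan trimming and the lectin cycle, 1 was up-regulated and none down-regulated (median −0.01). This was Edem1, a lectin that routes misfolded glycoproteins to degradation, with 342, 355, 379, 328 and 377 in WT and 611, 645, 618, 544 and 513 in KI. The genotypes did not overlap, and its log2 fold change was 0.71 (SE 0.10, adjusted p = 6.53e-05, limma).

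Of 19 other disulfide isomerase family and thiol oxidation genes tested, 1 was down-regulated and none up-regulated (median −0.08). It was Prdx4, an ER peroxiredoxin that oxidizes disulfide isomerases, at 921 ± 230 in WT and 519 ± 209 in KI (log2 fold change −0.90, adjusted p = 0.0222, limma), with libraries 4 and 5 the lowest in each genotype. It was no longer differentially expressed with library totals, or without WT1, WT2, WT3 or KI4. By adjusted p, 2 genes of this list were lower with the replicate block and 1 without it, against 17.4% and 13.3% of all genes. Of 17 other ER chaperones, 2 were up-regulated and 1 down-regulated (median 0.00). Dnajb9, a co-chaperone of Hspa5, went from 1930 ± 115 to 1089 ± 42.6 (−0.82, limma adjusted p = 2.78e-06). Serpinh1, the collagen chaperone, went from 75.2 ± 19.1 to 127 ± 29.4 (0.76, limma adjusted p = 0.0125), and Cnpy2 from 70.5 ± 9.27 to 107 ± 16.0 (0.59, limma adjusted p = 0.00962). The count of up-regulated genes in this list was 1 without WT2, WT3, KI3 or KI5. Leydig cell and macrophage markers were also up-regulated, as given above, and their part in the values of Serpinh1 and Cnpy2 was not tested.

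None of the 12 oligosaccharyltransferase genes was differentially expressed (median −0.06), and 3 had an unadjusted limma p under 0.05 (34.6% of all genes). By adjusted p, 2 were lower, and 3 with the replicate block, against 13.3% and 17.4% of all genes. Of 11 genes of the unfolded protein response tested, 1 was down-regulated and none up-regulated (median 0.08). That gene was Herpud1, which takes part in degradation of ER proteins, with 3000, 3370, 3966, 1979 and 2164 in WT and 832, 1035, 957, 929 and 758 in KI. No KI library reached the lowest WT library, and the log2 fold change was −1.64 (SE 0.17, adjusted p = 5.08e-06, limma). By adjusted p, 2 genes of this list were lower, and 3 with the replicate block, against the same shares of all genes.

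Of 18 sperm surface client genes and genes of Adam3 maturation, 3 were down-regulated and none up-regulated (median −0.25 under the deposited scaling and −0.02 with library totals). The down-regulated count was 1 with library totals and with scaling on spermatocyte markers, and with totals 1 gene was up-regulated. Ace, whose testis form is needed for Adam3 localization, went from 9347 ± 1352 to 4203 ± 255 (log2 fold change −1.14, limma adjusted p = 2.04e-06). Adam1a, the partner of Adam2 in the ER complex of spermatids, went from 4985 ± 417 to 3055 ± 256 (−0.71, or −0.48 with library totals, limma adjusted p = 5.03e-05 as deposited). Pmis2 went from 725 ± 130 to 447 ± 85.9 (−0.70, or −0.47 with library totals, limma adjusted p = 0.00357 as deposited). Adam3 itself, singled out after its values were seen, had 17730, 20831, 18272, 17143 and 17165 in WT and 12876, 12574, 12134, 15047 and 12469 in KI. Its genotypes did not overlap, as in 17.7% of all genes. The log2 fold change of Adam3 was −0.49 (SE 0.10, adjusted p = 0.00231, limma), short of the fold threshold, and −0.26 with library totals. With the replicate block, 9 genes of this list were lower and 2 higher by adjusted p, against 5 and 0 without it. Over all 15389 genes, 2670 (17.4%) were lower and 2256 higher with the block. Without it, 2044 (13.3%) were lower and 1485 (9.65%) higher.

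**Figure D5:**
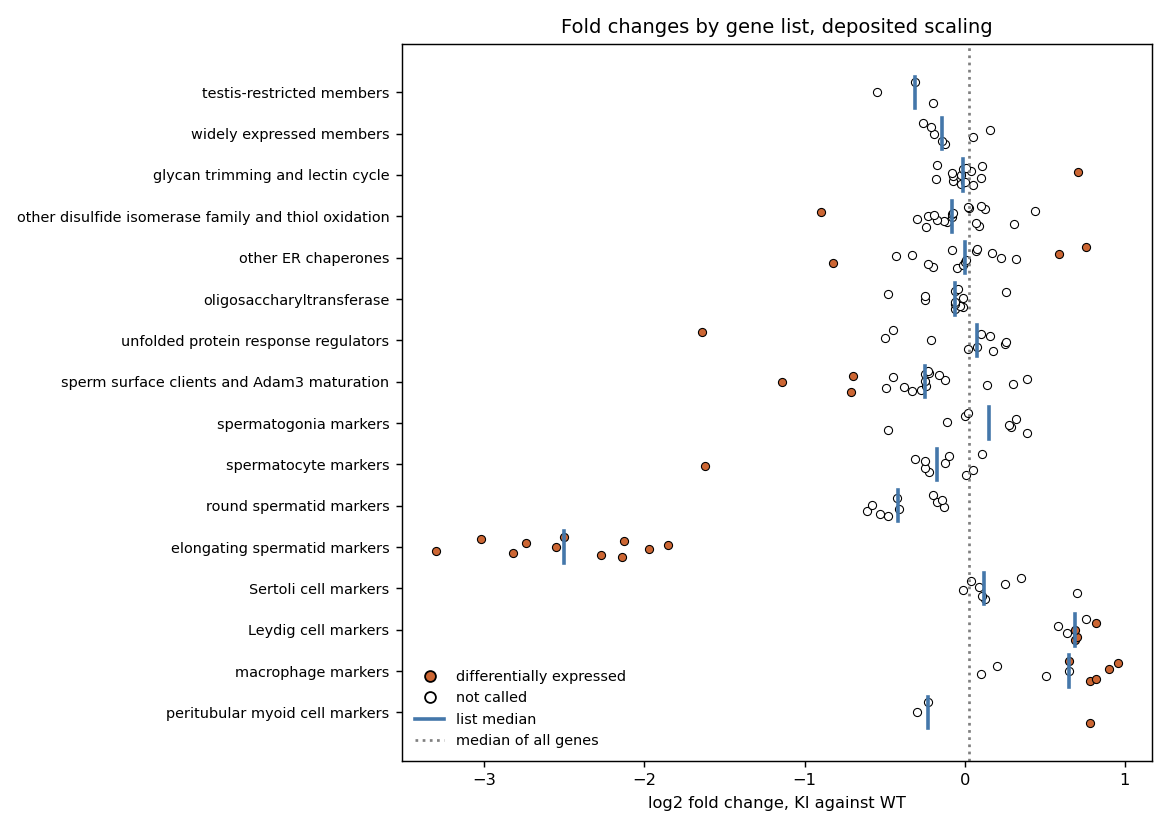
Log2 fold change of KI against WT for every tested gene of each list, under the deposited scaling, with differentially expressed genes filled, the list median as a blue bar and the median of all genes as a dotted line. None of the 10 lectin chaperone and disulfide isomerase genes is filled, while Edem1 (0.71), Herpud1 (−1.64) and Ace (−1.14) stand apart in their lists.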

How the data were processed

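Poly(A) RNA of germ cells from individual mice was sequenced, 5 WT and 5 KI, grouped by the labels' titles. The authors aligned reads with STAR to mm10 and counted them with the Partek E/M model on RefSeq_v91. They deposited one table of a normalized signal per gene, the gene counts divided by DESeq2 size factors. The versions of STAR and Partek are not given in the sources used here. The deposited value columns are those of the 10 libraries, and the authors' own comparison was not used. Positions are as deposited, and 62.7% of 15324 matched genes end 1 base past the RefSeq end.

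Whole reads were recovered from the step of each library: 100% of values under 5000 reads were whole within 0.1 read. A limit of 3 reads equals 2.61 to 3.62 normalized counts, for counting error only. Genes passing filterByExpr (15389) were tested with limma 3.58.1 under R 4.3.3, with its variance trend, on log2 of the deposited value plus 1. The test was two-sided, with Benjamini-Hochberg adjustment over all genes. Fold changes are on that scale. Alternatives were edgeR 4.0.16 and DESeq2 1.42.0 on the recovered reads, 3 other scalings, pseudocounts, filters, the replicate block, library sets and leaving out each library. Scripts were tested on simulated data. Pairs of replicates differed by more than sampling noise (chi-square per degree of freedom 2.67 to 46.5).

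Replicate numbers come from the titles. The deviations of same-numbered WT and KI libraries from their group means correlated at r = 0.105 to 0.462. The average was 0.134 for other numbers of the same library set and −0.201 across sets. The titles name no pairing, and WT2 and KI2 (0.105) lay below the average for other numbers of the same set. Blocked values are given for the calls and counts they move most. Exonic length is the union of exons in GENCODE vM21. Fold changes and tests cover the spread between mice.

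The genes and lists were chosen with earlier results of these data known. Named were all 10 genes, at most the 4 largest changes among differentially expressed genes of each other list, the 3 genes most correlated with each testis-restricted gene among those with a mean of at least 100, and Ddx25. Genes outside this rule (Ero1lb, Adam3 and those in the closing section) were chosen after their values were seen.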

Additional observations from a re-analysis of the deposited data

How the results depend on the processing

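The 10 genes were recomputed under 24 alternatives each: 211 of these values kept their direction and side of the adjusted p threshold, 9 passed it, 8 no longer did and 12 changed direction. With library totals the log2 fold change became 0.03 for Clgn, 0.11 for Canx, 0.09 for Calr, 0.04 for Pdia3 and 0.02 for Pdia6. Scaling on spermatocyte markers gave 0.07 for Canx, 0.06 for Calr and 0.00 for Pdia3. Libraries 1 to 3 alone gave 0.00 for Calr, and libraries 4 and 5 alone gave −0.21 for P4hb and −0.09 for Pdia4, and 0.01 for the Clgn over Canx ratio. P4hb was −0.02 without WT2. The cause was not tested beyond the shift of all genes given for each scaling.

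Of the 10 genes, 1 (Calr3) met both thresholds, as lower, in libraries 4 and 5 alone. With no fold threshold 1 passed, and 0 to 1 met both when a library was left out. Calr3 did so without WT4, WT5, KI1, KI2 or KI3. Over all genes, 944 were higher and 1265 lower. Higher counts were 2144 with library totals, 321 with a mean of at least 100, 472 in libraries 4 and 5, 605 at adjusted p under 0.01 and 1485 with no fold threshold. Lower counts were 789 with totals, 794 with spermatocyte scaling and 2044 with no fold threshold. On the recovered reads, edgeR with TMM called 950 higher and 1293 lower, and DESeq2 1018 and 1291. Leaving out a library gave 809 to 1012 and 1130 to 1296. Over the 6 pathway lists, 1 was higher in libraries 4 and 5 alone, 3 were lower with totals and 13 lower with no fold threshold, and leaving out a library gave 2 to 3 and 5 to 6. With the longest transcript as length, the WT level per kb was 5050 for Calr, 3070 for Pdia3, 1590 for Pdia6 and 65.7 for Ero1l. With the replicate block, the paralog ratios had exact permutation p = 0.312, 0.0625 and 0.125 in the order given above, a design that cannot go below 0.0625 and so cannot pass 0.05. At both thresholds the block changed no call of the 10 genes. By limma adjusted p alone, Pdilt (0.0178) and Ero1l (0.0348) passed 0.05 only with it, among the fits to all 10 libraries without a set term. With 5 mice a genotype, the 95% intervals of Calr3 and Pdilt passed 1.5-fold under the deposited scaling. For these genes, changes of that size cannot be set apart from smaller ones.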

Other observations

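Several genes of the pathway lists had an adjusted p under 0.05 (limma) without reaching the fold threshold, and are given as values chosen after they were seen. Txndc11, a thioredoxin-domain protein, was higher in KI (182 ± 12.7 to 226 ± 20.1, log2 fold change 0.31, limma adjusted p = 0.048), and the others were lower. Tusc3, a subunit of the oligosaccharyltransferase, had 2400 ± 146 normalized counts in WT and 1720 ± 118 in KI (SD, n = 5, log2 fold change −0.48, limma adjusted p = 0.000623), with no overlap between genotypes. Dad1 of the same complex went from 2084 ± 137 to 1752 ± 139 (−0.25, limma adjusted p = 0.0466). The ER stress-induced factors Manf (2978 ± 424 to 2196 ± 209, −0.43) and Creld2 (3880 ± 149 to 3129 ± 505, −0.33) were lower in KI, as was Ddit3, a transcription factor of the same response (709 ± 68.8 to 500 ± 54.8, −0.50). Hspa5, the main ER chaperone, was at 13564 ± 937 in WT and 13051 ± 663 in KI (−0.05, limma adjusted p = 0.721). With library totals the log2 fold changes were 0.54 for Txndc11, −0.25 for Tusc3, −0.02 for Dad1, −0.20 for Manf, −0.10 for Creld2, −0.28 for Ddit3 and 0.18 for Hspa5.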
